A study of Mus musculus with 4 samples.

Results

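Amino acids enter and leave mouse cells through several families of membrane carriers, and 5 of these families are described here in B16F10 cells, a pigmented mouse melanoma line. The genes are those whose symbols begin Slc1a, Slc7a, Slc36a, Slc38a or Slc43a, with the cystine carrier Slc7a11 left out. Of 27179 genes in the deposited count table, 39 had such a symbol, and the 21 with 10 or more counts in at least 2 libraries were kept. They comprise 2 Slc1a, 8 Slc7a, 2 Slc36a, 7 Slc38a and 2 Slc43a genes. The selection rule used symbols and a count minimum, and no comparison between the oils. The families themselves were chosen with earlier results of these data known.

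Wild-type B16F10 cells were given plain olive oil or ozonated olive oil at 0.01% for 6 h, and RNA-seq libraries were made with a kit that marks the strand. Each oil had 2 libraries, called plain oil 1 and 2 and ozonated oil 1 and 2 below, with 22539486, 23377947, 22766948 and 30038784 counts. The labels do not say whether the libraries of a group came from separate cultures, so p-values measure the spread between these libraries, which may be technical. Cells given no oil were not analysed here. The 9 melanocyte markers summed to 19625 to 26075 CPM (a gene's count scaled to a common library total), led by Dct, Tyrp1 and Pmel, with Ednrb at 4 counts in plain oil 1 and 0 elsewhere. Their regulator Mitf was at 692 and 614 CPM with plain oil and 354 and 253 CPM with ozonated oil (adjusted p = 0.254 by edgeR and 0.00262 by DESeq2). Of the markers of other cell types, 4 of 6 immune and 2 of 3 endothelial genes had 0 counts in all libraries, Pecam1 and Ptprc stayed at or below 0.263 CPM, and Lyz2 reached 2.94 CPM. The 6 fibroblast markers summed to 5.83 to 8.18 CPM. The 5 keratinocyte markers summed to 24.4 and 3.53 CPM with plain oil and 0.921 and 19.3 CPM with ozonated oil, which did not follow the oil.

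Carriers of these families differ in what drives them and where they sit. Slc1a4 and Slc1a5 exchange small neutral amino acids together with sodium. Slc7a carriers either import cationic amino acids alone or, as light chains bound to the heavy chain Slc3a2, exchange one amino acid for another at the plasma membrane. Slc38a carriers use sodium to concentrate glutamine and other neutral amino acids, Slc36a carriers move small amino acids with protons, and Slc43a carriers pass large neutral amino acids down their gradient. When amino acids are short or the endoplasmic reticulum is stressed, the transcription factor ATF4 raises several of these genes. MYC is known to raise others in growing cells. The comparison asks which of them differed after the ozone-treated oil.

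No member passed the test over all genes. Slc38a2 and Slc38a9 had the members' smallest p-values, and both had higher values in each library of ozonated oil. Slc1a5, Slc7a6, Slc7a7, Slc36a4, Slc38a6 and Slc43a1 were lower in both ozonated oil libraries than in either plain oil library. Several of the most abundant carriers, among them Slc7a1, Slc7a5 and Slc38a7, as well as Slc1a4, differed more between the 2 libraries of a group than between the oils.

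With the edgeR quasi-likelihood test, adjusted over all 12675 genes tested, 0 of 21 members had an adjusted p below 0.05, as was so of all genes (0.0%). All 21 passed the low-count filter of that fit, and each had 10 or more counts in at least 1 library of either group. At an unadjusted edgeR p below 0.05 there were 2 members, both higher, where 4.54% of all genes were called higher and 5.29% lower. DESeq2 called 1 member, Slc38a2, against 2.16% of all genes. For 4 members (19.9% of all genes) the ozonated oil pair lay wholly above the plain oil pair, for 6 (20.0% of all genes) wholly below it, and for 11 the groups overlapped. These counts are not far from the shares among all genes. The median log2 change of the 21 members, as ozonated over plain oil, was 0.10, with 12 above and 9 below 0, against a median of 0.04 over all genes. That median was -0.18 without plain oil 1 and -0.23 without ozonated oil 1. Because whole cultures were sequenced, fewer cells with a transcript and less of it per cell cannot be told apart.

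**Figure D1:**
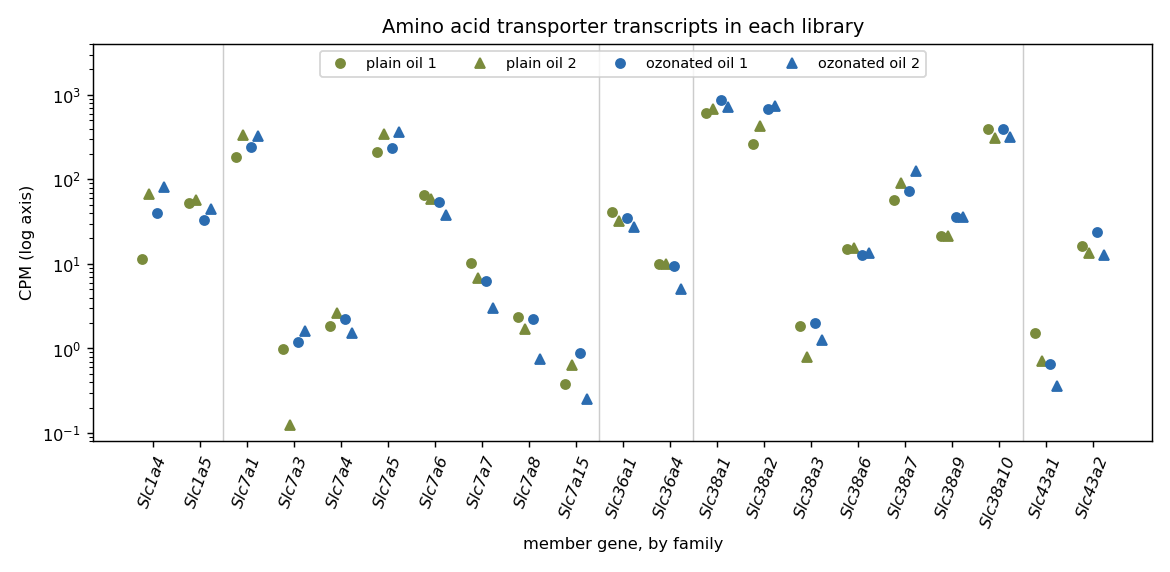
CPM of each of the 21 members in each library, on a log axis, with members grouped by family between grey lines. Green symbols are plain oil and blue symbols ozonated oil, circles are library 1 and triangles library 2. The blue symbols stand above the green ones for Slc7a3, Slc38a1, Slc38a2 and Slc38a9, and within 1 colour the triangle stands above the circle for Slc1a4, Slc7a1, Slc7a5 and Slc38a7.

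**Figure D2:**
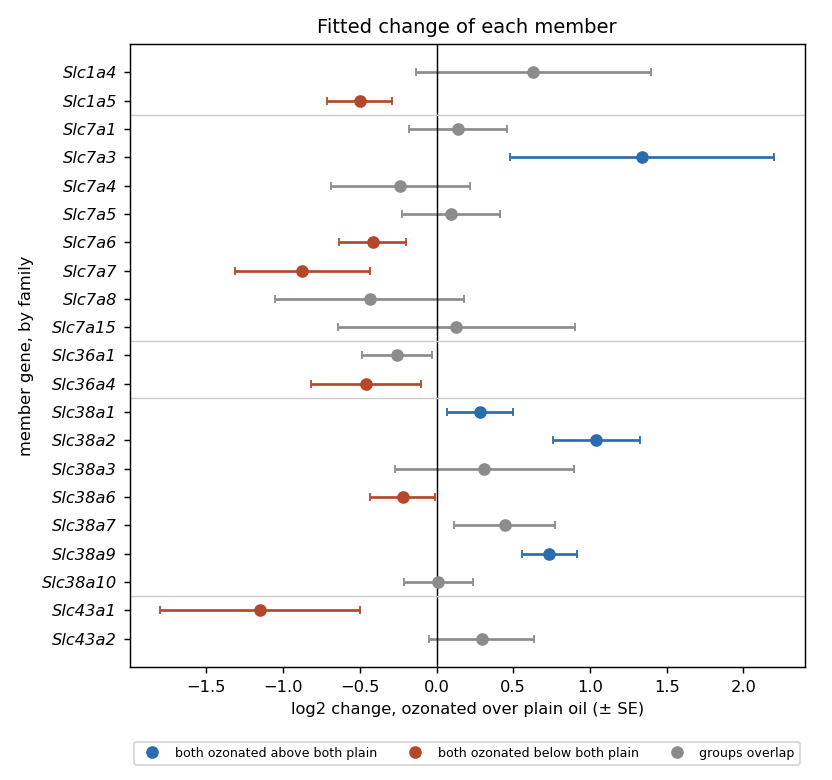
Fitted log2 change of each member, ozonated over plain oil, with the standard error of the edgeR fit as a bar. Blue points are members whose ozonated oil values all exceed the plain oil values (4 members), red points those with all values lower (6 members) and grey points those that overlap (11 members).

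To compare levels between genes, CPM was divided by the length in kb of the longest protein-coding transcript. On this scale of CPM per kb, plain oil cells had the most transcript of Slc38a1, at 89.2 ± 7.17 (SD, n = 2), followed by Slc7a5 at 79.0 ± 26.0, Slc38a10 at 77.2 ± 13.4 and Slc38a2 at 74.8 ± 26.0. These 4 do not differ from their neighbours in the order beyond their spread. Slc7a1, at 36.1 ± 14.5, came next, and together the 5 held 79.4% and 79.7% of the members' summed level under plain oil and 84.5% and 82.2% under ozonated oil. With ozonated oil Slc38a2 stood first, at 154 ± 9.07 CPM per kb, above Slc38a1 at 109 ± 13.7 in both libraries. That order depended on the lengths used. In CPM, Slc38a2 was at 688 and 748 and Slc38a1 at 859 and 718 with ozonated oil. At the other end, Slc7a3, Slc7a4, Slc7a8, Slc7a15, Slc38a3 and Slc43a1 had levels under 1 CPM per kb in every library.

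The Slc38a family held the largest difference in summed level. Its 7 members summed to 251 and 289 CPM per kb with plain oil and 382 and 375 with ozonated oil, which is 270 ± 26.5 against 378 ± 5.02 (SD, n = 2 per group) and a ratio of 1.4. The 2 groups did not overlap. Without Slc38a2 the other 6 summed to 195 and 196 against 234 and 214, a ratio of 1.15. The median log2 change of the family was 0.31, which is the value of Slc38a3, a gene with 19 to 46 counts in a library. Without ozonated oil 1 the median was 0.12. Summed levels of the other 4 families overlapped between the oils. The Slc1a pair summed to 21.7 and 37.9 CPM per kb with plain oil and 22 and 37.0 with ozonated oil, so library 1 and library 2 differed alike within each oil. Slc7a did the same, at 110 and 164 against 120 and 161. The Slc36a pair had a ratio of 0.819 and the Slc43a pair a ratio of 1.11, each with overlapping libraries.

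**Figure D3:**
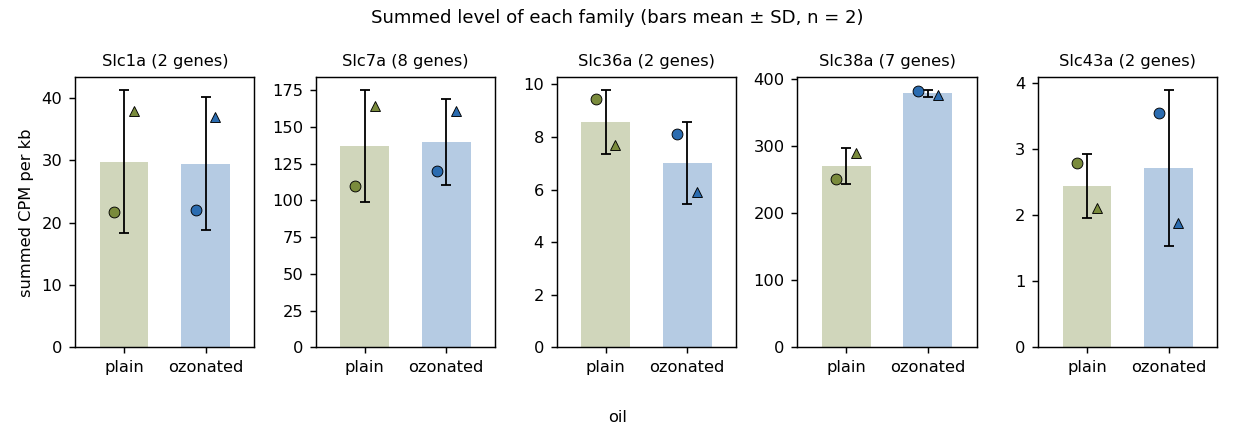
Summed CPM per kb of each family's members, with bars for the group mean, error bars for the SD (n = 2), circles for library 1 and triangles for library 2. Each panel has its own axis from 0. In the Slc38a panel the blue points (382 and 375) stand above the green ones (251 and 289), and in the other panels the oils overlap.

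Slc38a2 encodes SNAT2, a sodium-coupled importer of small neutral amino acids whose gene is a known ATF4 target in amino acid shortage. It had 263 and 434 CPM with plain oil and 688 and 748 CPM with ozonated oil. Both ozonated oil values lay above both plain oil values, and plain oil 1 was the lowest of the 4. The log2 change was 1.04 with a standard error of 0.29, or 2.06-fold (unadjusted p = 0.0103, adjusted p = 0.327 by edgeR). DESeq2 gave an adjusted p of 0.0226. When libraries were left out in turn the log2 change ran from 0.73 to 1.45.

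Slc38a1, a close relative of Slc38a2 that encodes the glutamine importer SNAT1, lies beside it on chromosome 15, with 43953 bases between the annotated ends (96571418 to 96643438 for Slc38a1 and 96687392 to 96699728 for Slc38a2, GRCm38). Its levels were 612 and 685 CPM with plain oil and 859 and 718 CPM with ozonated oil. The groups did not overlap, but plain oil 2 and ozonated oil 2 were close. The log2 change was 0.28 with a standard error of 0.22 (edgeR adjusted p = 0.760). Slc38a4, the next member of the family 295087 bases further along, had 0 counts in all 4 libraries.

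Slc38a9 encodes a lysosomal carrier that senses arginine inside the lysosome and signals to mTORC1, the kinase complex of cell growth. Its levels were 21.7 and 21.5 CPM with plain oil and 35.7 and 36.2 CPM with ozonated oil, so the libraries of an oil almost coincided while the oils did not overlap. The log2 change was 0.74 with a standard error of 0.18, or 1.67-fold. Its unadjusted p of 0.00592 was the members' smallest, with an adjusted p of 0.289 by edgeR and of 0.107 by DESeq2. Over all the alternatives tried its log2 change stayed between 0.71 and 0.74. The gene overlaps the antisense gene Gm47827 over 16558 bases, and the strand setting of the read counting was not stated in the labels. It also overlaps the processed pseudogene Gm18883, on the same strand, over 358 bases. No counts were listed for Gm47827 or Gm18883.

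Of the other 4 Slc38a members, 3 overlapped between the oils and Slc38a6 did not. Slc38a7, a lysosomal exporter of glutamine and asparagine, had 57.2 and 89.8 CPM with plain oil and 73.4 and 126 CPM with ozonated oil, so that the groups overlapped. Within each oil library 2 was the higher, by 1.57-fold and 1.72-fold, and the fitted log2 change of 0.44 became -0.01 without ozonated oil 2. Slc38a10, abundant but of less settled function, was at 397 and 310 against 394 and 319 CPM, with a log2 change of 0.01. Slc38a6 was at 15.1 and 15.5 against 12.9 and 13.3 CPM, with both ozonated oil values the lower, and its log2 change was -0.22 with a standard error of 0.21 (edgeR adjusted p = 0.811). Slc38a3, a glutamine carrier best known in liver, stayed between 0.798 and 2.02 CPM. Slc38a5, another glutamine carrier, had 0 counts in all libraries, which allows up to 3 counts, or 0.107 to 0.132 CPM depending on the library.

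The cationic amino acid carriers of the Slc7a family import arginine and lysine. Slc7a1, the housekeeping member, had 186 and 333 CPM with plain oil and 245 and 326 CPM with ozonated oil. The groups overlapped, and the log2 change was 0.14 with a standard error of 0.32 (edgeR adjusted p = 0.932). Slc7a3 had 23 and 3 counts with plain oil and 27 and 45 with ozonated oil, which is 0.975 and 0.126 against 1.18 and 1.6 CPM. The ozonated oil values were the higher, but plain oil 1 was close to them, and the log2 change of 1.34 had a standard error of 0.86. Without plain oil 2 it was 0.52, and without plain oil 1 it was 3.42. Slc7a2 had no count in 3 libraries and 2 in ozonated oil 2. Slc7a4, a relative without a settled substrate, was between 1.53 and 2.60 CPM. Of the 3 importers of this type, 2 were tested, at log2 changes of 0.14 for Slc7a1 and 1.34 for Slc7a3. Their median of 0.74 lies between these unlike values and describes neither gene.

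The light chains that pair with Slc3a2 exchange large neutral or cationic amino acids. Slc7a5, or LAT1, which brings in leucine and other essential amino acids, had 213 and 343 CPM with plain oil and 233 and 361 CPM with ozonated oil. Library 2 was the higher within each oil, by 1.61-fold and 1.55-fold, and the log2 change between the oils was 0.10 with a standard error of 0.32 (edgeR adjusted p = 0.951). Slc7a6 and Slc7a7, which exchange arginine or lysine for neutral amino acids, both had lower values with ozonated oil. Slc7a6 was at 64.6 and 58.2 against 53.7 and 38.3 CPM, and Slc7a7 at 10.3 and 6.84 against 6.36 and 2.99 CPM. For neither did the groups overlap, though plain oil 2 and ozonated oil 1 were close for both. The log2 changes were -0.42 for Slc7a6 (standard error 0.22, edgeR adjusted p = 0.623) and -0.87 for Slc7a7 (standard error 0.44, edgeR adjusted p = 0.601). Without ozonated oil 1 they were -0.71 and -1.54, and without ozonated oil 2 they were -0.20 and -0.44. Slc7a7 overlaps the gene Oxa1l (870 to 1297 counts), on the other strand, over 232 bases. Slc7a5 overlaps Gm20388 on the other strand over 26545 bases, and no counts were listed for Gm20388. Slc7a4, Slc7a15, Slc38a10 and Slc43a2 also overlap genes on the other strand.

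Slc7a8, or LAT2, ran from 0.749 to 2.33 CPM with overlapping groups. The amino acid carrier gene Slc7a15 had between 7 and 20 counts in each library. The heavy chain Slc3a2, which is no member, had 87.9 and 99.8 CPM per kb with plain oil and 103 and 176 with ozonated oil, with a log2 change of 0.57 and a standard error of 0.29 (edgeR adjusted p = 0.604). The other heavy chain, Slc3a1, had 1 to 11 counts and was not tested. Light chains of Slc3a2 were read on the same scale of CPM per kb (plain and ozonated oil, SD, n = 2). Slc7a5 stood at 79.0 ± 26.0 and 84.5 ± 25.7, Slc7a6 at 16.4 ± 1.20 and 12.3 ± 2.91, and Slc7a7 at 3.75 ± 1.06 and 2.05 ± 1.04. Slc7a11, the light chain for cystine, stood at 9.78 ± 0.412 and 38.6 ± 1.53. On this scale Slc7a11 was below Slc7a6 with plain oil and above it with ozonated oil, in both libraries of each. The plain oil order depended on the lengths used, 9223 bases for Slc7a11 and 3750 for Slc7a6. In CPM, Slc7a11 was above Slc7a6 with plain oil too, at 92.9 and 87.5 against 64.6 and 58.2.

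Slc1a4 and Slc1a5, the neutral exchangers ASCT1 and ASCT2, had fitted log2 changes of opposite sign, though the oils overlapped for Slc1a4. Both genes were higher in library 2 than in library 1 in both oils. Slc1a4, which favours serine, alanine and threonine, had 11.4 and 67.2 CPM with plain oil and 39.9 and 81.8 CPM with ozonated oil. Plain oil 2 was 5.90-fold above plain oil 1, and ozonated oil 2 was 2.05-fold above ozonated oil 1. The log2 change was 0.63 with a standard error of 0.76 (edgeR adjusted p = 0.856). It was 2.42 without plain oil 2, with an edgeR adjusted p of 0.0347, and -0.14 without plain oil 1. Slc1a5, a glutamine carrier, had 51.9 and 57.5 CPM with plain oil and 32.8 and 44.6 CPM with ozonated oil, both lower. Its log2 change was -0.50 with a standard error of 0.21 (unadjusted p = 0.0561, adjusted p = 0.528 by edgeR). The glutamate carriers of the family, Slc1a1, Slc1a2, Slc1a3, Slc1a6 and Slc1a7, had 4 or fewer counts in any library.

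Proton-coupled and facilitative carriers were lowly to moderately expressed. Slc36a1, which exports small amino acids from lysosomes, had 41.6 and 32.5 CPM with plain oil and 35 and 27.1 CPM with ozonated oil, overlapping. Slc36a4 had 9.96 and 10.1 against 9.56 and 5.06 CPM, so that the lower value of its group came from ozonated oil 2. The neighbouring Slc36a2 and Slc36a3 on chromosome 11 had 2 or fewer counts. Slc43a1, or LAT3, a carrier of branched-chain amino acids, had 36 and 17 counts with plain oil and 15 and 10 with ozonated oil, and its log2 change was -1.15 (standard error 0.65, edgeR adjusted p = 0.658). Without plain oil 1 it was -0.50, and without ozonated oil 1 it was -1.67. Slc43a2, or LAT4, was at 16.3 and 13.4 against 23.9 and 12.6 CPM, overlapping.

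Most genes linked to ATF4 differed between library 1 and library 2 in the same direction in both oils. Of Slc1a4, Slc1a5, Slc7a1, Slc7a3, Slc7a5 and Slc38a2, 5 were higher in library 2 than in library 1 in both oils, the exception being Slc7a3. Among all 21 members 7 were so, and 8 were lower in library 2 in both oils, against 36.2% and 33.5% of all genes tested. Atf4 itself had 131 and 415 CPM with plain oil and 279 and 716 CPM with ozonated oil. Its target Trib3 had 6.06 and 36.3 against 47.1 and 180 CPM, and Ddit3, another gene of the stress response, 16 and 28.2 against 51.5 and 153 CPM. All 3 were higher in library 2 of each oil. They were also higher with ozonated oil at each library number, by 2.12-fold and 1.73-fold for Atf4, 3.23-fold and 5.42-fold for Ddit3 and 7.78-fold and 4.96-fold for Trib3. The labels do not pair libraries by number. In the fit without pairing, log2 changes were 0.866 for Atf4 (standard error 0.631), 2.21 for Ddit3 (0.545) and 2.42 for Trib3 (0.925). In this order, adjusted p-values were 0.749, 0.289 and 0.485 by edgeR and 0.682, 0.000461 and 0.595 by DESeq2. The oils overlapped for Atf4 and did not for Ddit3 and Trib3. Their part in the members' values was not tested. Of the 6 genes, 2 had ozonated oil libraries wholly above plain oil (Slc7a3 and Slc38a2), 1 wholly below (Slc1a5) and 3 overlapped, against 19.9% above and 20.0% below among all genes. Their median log2 change was 0.38.

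For genes linked to MYC the values were lower or overlapped. Myc itself had 83.9 and 81.5 CPM with plain oil and 9.47 and 15.8 CPM with ozonated oil (adjusted p = 0.166 by edgeR and 6.33e-15 by DESeq2), and its part in the members' values was not tested. With Nfe2l2 and Eif2ak4, 6 regulators were read, of which edgeR called 0 and DESeq2 called 2, Ddit3 and Myc (2.16% of all genes). The regulators' log2 changes ran from -2.71 for Myc to 2.42 for Trib3, so their median of 0.40 pools unlike values. Of Slc1a5, Slc7a5, Slc7a6, Slc38a5 and Slc43a1, 4 were tested, and 3 had both ozonated oil values below both plain oil values, with Slc7a5 overlapping, where 20.0% of all genes lay wholly below. Their median log2 change was -0.46, and 0 of 4 passed with edgeR or DESeq2. Slc1a5 and Slc7a5 belong to both the ATF4 and the MYC lists. In the lysosomal list, Slc38a9 was above, Slc36a4 below, and Slc36a1 and Slc38a7 overlapped, while Slc7a14 had 6 or fewer counts.

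**Figure D4:**
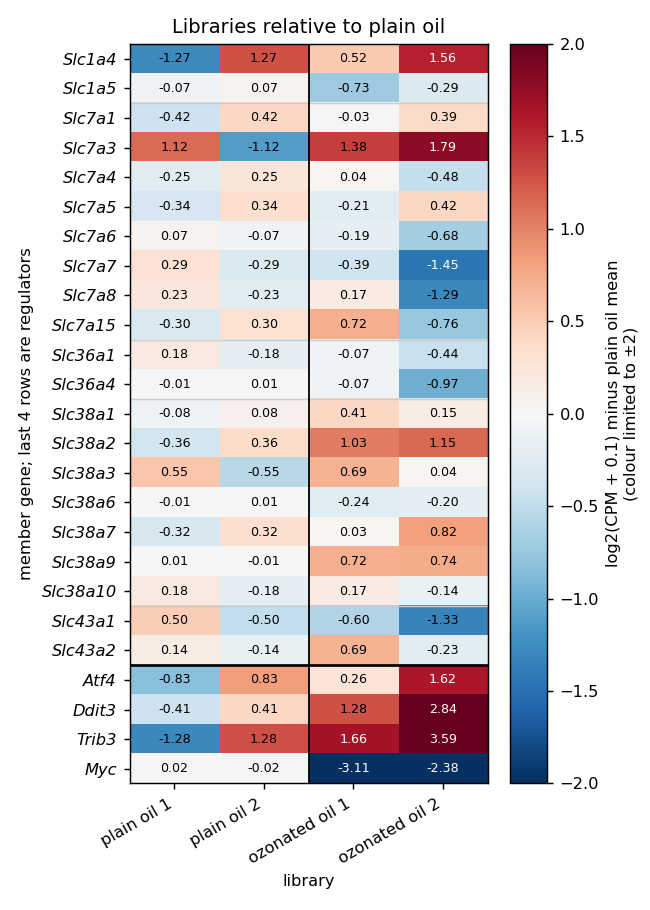
Difference of each library from the plain oil mean, in log2(CPM + 0.1), for the 21 members and for the regulators Atf4, Ddit3, Trib3 and Myc under the black line. Red is higher and blue lower than plain oil, and colour stops at 2 in either direction. Slc1a4 runs from -1.27 and 1.27 under plain oil to 0.52 and 1.56 under ozonated oil, while Slc38a9 stands at 0.01 and -0.01 against 0.72 and 0.74.

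The sequences before the start sites were searched for short motifs on both strands, in RefSeq windows of GRCm38.p6 that span 250 bases before to 50 bases after an annotated start. Such windows were given for 15 of the 21 members (23 windows, as some genes have several starts), and none for Slc1a5, Slc7a3, Slc7a4, Slc7a5, Slc38a1 and Slc38a3. The letters TGATGNAAN, the C/EBP-ATF element that ATF4 can bind, were in 3.95% of all 32851 windows and in 3 member windows, of Slc1a4 and Slc7a7. Overlapping windows of Slc7a7 shared a site, which was counted in each. The letters TGACNNNGC, the antioxidant element, were in 12.4% of all windows and in 6 member windows, of Slc7a1, Slc7a6, Slc36a1, Slc38a2 and Slc43a1. Here overlapping windows of Slc7a6 shared a site in the same way. The E-box CACGTG, which MYC and TFEB bind, was in 7.15% of all windows and in 3 member windows, of Slc36a1, Slc38a7 and Slc43a1. In the Slc36a1 window, the antioxidant letters and 1 of the E-boxes overlapped, and the other matches of different motifs did not. A match describes the letters and not a bound site.

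Of these, 5 stretches are shown as examples, 5′ to 3′ on the strand of the gene, with the matched letters in capitals. Other matches, among them those of Slc7a1, Slc7a6 and Slc36a1, are not printed. The Slc1a4 stretch (chr11:20332710-20332763, minus strand) ends in the C/EBP-ATF letters read on the opposite strand. They run from 5 bases before the start to base 4 of the transcript. The Slc7a7 stretch (chr14:54417937-54417990, minus strand) ends in the same element read forwards, at 1 of the starts of the gene. The Slc38a2 stretch (chr15:96699729-96699800, minus strand) holds the antioxidant letters and no C/EBP-ATF letters were in its window. The element through which ATF4 acts on the human gene is known to lie in its first intron. The Slc38a7 (chr8:95853492-95853570, minus strand) and Slc43a1 (chr2:84840214-84840309, plus strand) stretches hold an E-box. Whether any match bears on a gene's values was not tested.
Slc1a4: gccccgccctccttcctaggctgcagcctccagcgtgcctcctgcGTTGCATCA
Slc7a7: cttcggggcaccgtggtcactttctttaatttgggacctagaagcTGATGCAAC
Slc38a2: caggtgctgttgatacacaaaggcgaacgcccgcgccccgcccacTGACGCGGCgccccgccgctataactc
Slc38a7: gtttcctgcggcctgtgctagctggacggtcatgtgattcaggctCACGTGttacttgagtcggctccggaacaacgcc
Slc43a1: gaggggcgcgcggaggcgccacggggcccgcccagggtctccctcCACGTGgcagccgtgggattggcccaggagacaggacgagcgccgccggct

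Other genes of amino acid transport and sensing were read from lists. Of 12 further carriers, 10 were tested, with 8 higher, 2 lower and a median log2 change of 0.40. The groups did not overlap for 6 of them, 5 with the higher values under ozonated oil and 1, the taurine carrier Slc6a6, with the lower, against 19.9% and 20.0% of all genes. Ctns, which exports cystine from lysosomes, had 30.8 and 42.5 CPM with plain oil and 60.8 and 74.4 with ozonated oil (1.84-fold). Slc15a4, a lysosomal carrier of histidine and peptides, was at 53.8 and 55.5 against 85.2 and 85.6 CPM (1.56-fold), again with libraries of an oil close together. Slc6a9, a glycine carrier, was at 10.3 and 13.3 against 15.2 and 32.4 CPM. With edgeR 0 of these 10 passed, 4 had an unadjusted p below 0.05, all higher (4.54% of all genes), and DESeq2 called 1, Slc7a11 (2.16% of all genes).

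Among 8 mitochondrial amino acid carriers, 3 were higher and 5 lower with ozonated oil. Their median log2 change was -0.09. Slc25a29, which carries basic amino acids into mitochondria, had 10.6 and 10.3 CPM with plain oil and 3.11 and 4.31 with ozonated oil, and its log2 change was -1.49 (standard error 0.30, edgeR adjusted p = 0.235, DESeq2 adjusted p = 0.00631). Slc25a15, the ornithine carrier, was at 24.2 and 20.2 against 16.2 and 10.5 CPM, also without overlap. With edgeR 0 of 8 passed, 2 were lower at an unadjusted p below 0.05 (5.29% of all genes), and DESeq2 called Slc25a29 alone (2.16% of all genes).

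The list of amino acid sensing upstream of mTORC1 had 26 genes, of which 25 were tested, with 21 higher, 4 lower and a median log2 change of 0.13, where 6847 of all 12675 genes were higher and 5828 lower. For 11 of the 25 the ozonated oil pair lay wholly above the plain oil pair, and for 1, Nprl3, wholly below, against 19.9% and 20.0% of all genes. Fnip1, a partner of folliculin, was at 121 and 122 against 221 and 183 CPM (1.66-fold), and Sesn2, a leucine sensor that ATF4 also raises, at 18.4 and 37.2 against 41.1 and 67.3 CPM. Neither edgeR nor DESeq2 called any of the 25 (0.0% and 2.16% of all genes). At an unadjusted edgeR p below 0.05 there were 2, Fnip1 and Sesn2, both higher, where 4.54% of all genes were called higher.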

How the data were processed

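The deposited table holds raw read counts per gene, not normalized, 1 column per library. Per the submitters' processing notes the tools included HISAT2 2.1.0, StringTie 1.3.4d and edgeR, and the build was mm10. Which program counted the reads, and with what annotation or strand option, was not stated in the labels. Low values were more often even (59.8% of values from 1 to 10, against 50.0% from 101 to 1000), so a count need not be 1 independent fragment. Within a group the libraries differed beyond sampling noise, with a chi-square over its degrees of freedom of 37.0 for plain and 120 for ozonated oil.

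Counts were filtered with filterByExpr of edgeR 4.0.16 in R 4.3.3 (12675 genes), scaled by TMM and compared with the quasi-likelihood F-test, two-sided, group as the only term, p-values adjusted by Benjamini-Hochberg across these genes, threshold 0.05. Unadjusted p-values of single genes are of this test. Standard errors came from the F statistic. CPM used the scaled library sizes. An exact permutation test of 2 against 2 libraries gives at least p = 0.333 and was left out. DESeq2 1.42.0, other filters and scalings, the replicate number as a block, a fit without Rn45s (0.249% to 1.10% of counts) and each library left out, with the filter rerun and the lone library of a group assumed to vary like the other group, were alternatives. The fits were checked on counts drawn from the real means.

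Members and lists were chosen with earlier results of these data known. The members named in full are the most abundant per kb and the most changed of each family, those with an unadjusted p below 0.05, and those linked to ATF4, to MYC, to cationic amino acids or to lysosomes. Positions and start-site windows are RefSeq's (GRCm38.p6, the assembly of mm10), and lengths are GENCODE M21's. The list gene Samtor was not matched by symbol. Genes with no symbol, 0.197% to 0.218% of counts, stayed in the fit.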

Additional observations from a re-analysis of the deposited data

How the results depend on the processing

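Genes called over the whole table numbered 0 with edgeR, 4 with no filter and 274 with DESeq2, and between 1 (without plain oil 1) and 389 (without ozonated oil 1) with 1 library left out. Members called numbered 0, against 1 with DESeq2 (Slc38a2) and between 0 and 1 with 1 library left out (Slc1a4, without plain oil 2). The replicate block called 1160 genes (9.15%) and 4 members, Slc1a4, Slc7a7, Slc38a2 and Slc38a9, but the labels do not say that a shared number marks a shared culture or day, and 2 pairs are too few to establish pairing from the data (correlation of same-numbered deviations 0.42 over 12675 genes).

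With 1 library left out, the median log2 change of the members ran from -0.229 to 0.048, and by family from -0.366 to 1.0 for Slc1a, from -0.636 to 0.265 for Slc7a, from -0.750 to -0.083 for Slc36a, from 0.116 to 0.397 for Slc38a and from -0.970 to -0.028 for Slc43a. With a filter of 1 CPM the Slc43a median was 0.295, since Slc43a1 was no longer tested. The sign of 10 members turned when 1 library was left out, with log2 changes from -0.143 to 2.421 for Slc1a4, from -0.223 to 0.621 for Slc7a1, from -0.559 to 0.048 for Slc7a4, from -0.262 to 0.482 for Slc7a5, from -1.447 to 0.148 for Slc7a8, from -1.035 to 0.780 for Slc7a15, from -0.160 to 1.023 for Slc38a3, from -0.011 to 0.807 for Slc38a7, from -0.181 to 0.200 for Slc38a10 and from -0.269 to 0.676 for Slc43a2. Without a change of sign, they ran from -0.745 to -0.328 for Slc1a5, from 0.521 to 3.419 for Slc7a3, from -0.485 to -0.065 for Slc36a1, from -1.016 to -0.076 for Slc36a4 and from 0.116 to 0.397 for Slc38a1. No other filter, scaling or tool tried turned a member's sign, and the cause of these differences was not tested. With 2 libraries a group, large differences could also go uncalled by edgeR. Slc7a11, at 3.95-fold, and Myc, at 0.153-fold, each had an edgeR adjusted p of 0.166. A count of 0 members called therefore does not show that the members did not differ.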
